A study of Rattus norvegicus with 12 samples.

Results

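The mitochondrial carrier family comprises the Slc25 proteins and the uncoupling proteins (Ucp), which move metabolites across the inner mitochondrial membrane. Its members were taken from the deposited expression table as every gene name beginning with Slc25a or Ucp and a digit that was above 0 in at least 1 liver, with the transcript of highest mean level kept for each gene. This gave 35 carriers out of 38 listed under such names and out of 24355 gene names in the whole table. Slc25a31, Ucp1 and Ucp3 were listed at 0 in every liver.

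Hepatic poly(A) RNA was sequenced in 12 female rats of the inbred alcohol-preferring strain iP10a, a line bred for voluntary drinking. The 6 EtOH animals had tap water and bottles of 10, 20 and 30% ethanol (v/v) freely available for 23 weeks, and the 6 control animals had tap water only. All animals had food freely available and were collected at 38 weeks of age, except EtOH animal 6 at 39 weeks. Each library is 1 animal, intake was voluntary so that the dose was not set per animal, and the whole liver was used, so more cells of a type and more RNA per cell cannot be told apart.

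Levels are given as RPKM, reads scaled by transcript length and by the mapped reads of the library, and so as a level per length. The RPKM steps gave back between 2610238 and 4318141 whole reads or read pairs per control liver (median 3305919.5). Per EtOH liver they gave between 3945593 and 6030028 (median 4302209), so depth differed with group and EtOH values rest on more reads. Transcripts above 0 numbered 15378 to 15957 in control and 15928 to 16574 in EtOH livers. A count of 0 allows up to 3 reads in a liver, as far as counting error goes. Differences are EtOH minus control on quantile-normalized log2(RPKM + 0.5), with the standard error (SE) and the Benjamini-Hochberg adjusted p of limma over all 21718 transcripts above 0. The pseudocount of 0.5 shrinks differences of carriers with low levels. Calls were made where the adjusted p fell below 0.05. As deposited, the median log2 difference was -0.082 over all transcripts averaging 1 RPKM or more, and quantile normalization brought it to 0.00782. The shift was larger for some abundant carriers, such as Slc25a5 (from -0.133 to 0.013) and Slc25a1 (from -0.592 to -0.446). A small fall in RPKM can thus become a normalized difference above 0.

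The inner membrane is nearly closed to charged metabolites, and each carrier passes a narrow set of them, usually by exchange of one substrate for another. Carriers are small proteins built from repeated pairs of membrane helices, made in the cytosol and imported. In hepatocytes they link ATP export, citrate export for lipid synthesis, the urea cycle, fatty acid oxidation and the malate-aspartate shuttle to the enzymes on either side of the membrane.

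Hepatocyte transcripts led the libraries, with albumin at 10.6 to 15.7% of all RPKM in control livers and 12.5 to 17.5% in EtOH livers. Of all transcripts tested, 2.42% were called and 1.13% were called higher in EtOH, the shares to set beside the marker counts below. Of 5 hepatocyte markers tested 1 was called, Cps1, higher in EtOH. Before adjustment 2 of them had a p below 0.05, Cps1 and Cyp2e1 (0.344, SE 0.091, limma adjusted p = 0.072). Among fat and muscle markers, Adipoq, Lep, Plin, Ckm and Mb were at 0 in every liver, and Cidea and Acta1 were tested and not called. Markers of the other liver cells were present. Of 6 Kupffer cell and macrophage markers tested, 3 were called higher in EtOH (Cd163, Clec4f and Vsig4), with a summed level of 108 to 169 RPKM in control and 148 to 190 in EtOH livers and a median log2 difference of 0.469. Of 8 stellate cell markers 1 was higher (Col3a1, summed level 26.4 to 35.8 against 33.2 to 52.8 RPKM, median difference 0.388), and of 4 endothelial markers 1 was higher (Cdh5, summed level 27.7 to 35.3 against 32.7 to 45.5 RPKM, median difference 0.414). Before adjustment, 4 of the 6 Kupffer cell, 5 of the 8 stellate and 3 of the 4 endothelial markers had a p below 0.05, against 15.5% of all transcripts, low ones included. The normalized differences of these 3 lists all lay above 0. In mean RPKM each of these markers was higher in EtOH too, but only 1.03 times for Cd68 and 1.11 times for Cd5l. Their normalized log2 differences were 0.229 and 0.321. Marker calls without normalization are not given here. None of the 6 lymphocyte, 3 cholangiocyte or 4 erythroid markers tested was called by limma, and 0 of them had an unadjusted p below 0.05. Whether these shifts have a part in the carrier differences was not tested.

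The carriers spanned more than 4 orders of magnitude of mean RPKM, from 203 for Slc25a5 to 0.00747 for Slc25a18, and 9 had a mean of at least 50. Of the 35 carriers, 27 had a mean RPKM of at least 1, 8 lay below 1, and 31 were above 0 in all 12 livers. The summed RPKM of the family ranged from 968 to 1154 with a median of 993 in control livers, and from 904 to 1073 with a median of 964 in EtOH livers. These ranges overlapped. The 5 highest carriers (Slc25a5, Slc25a3, Slc25a15, Slc25a39 and Slc25a1) held 58.4 to 61.1% of that sum in control livers and 56.7 to 59.3% in EtOH livers.

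**Figure D1:**
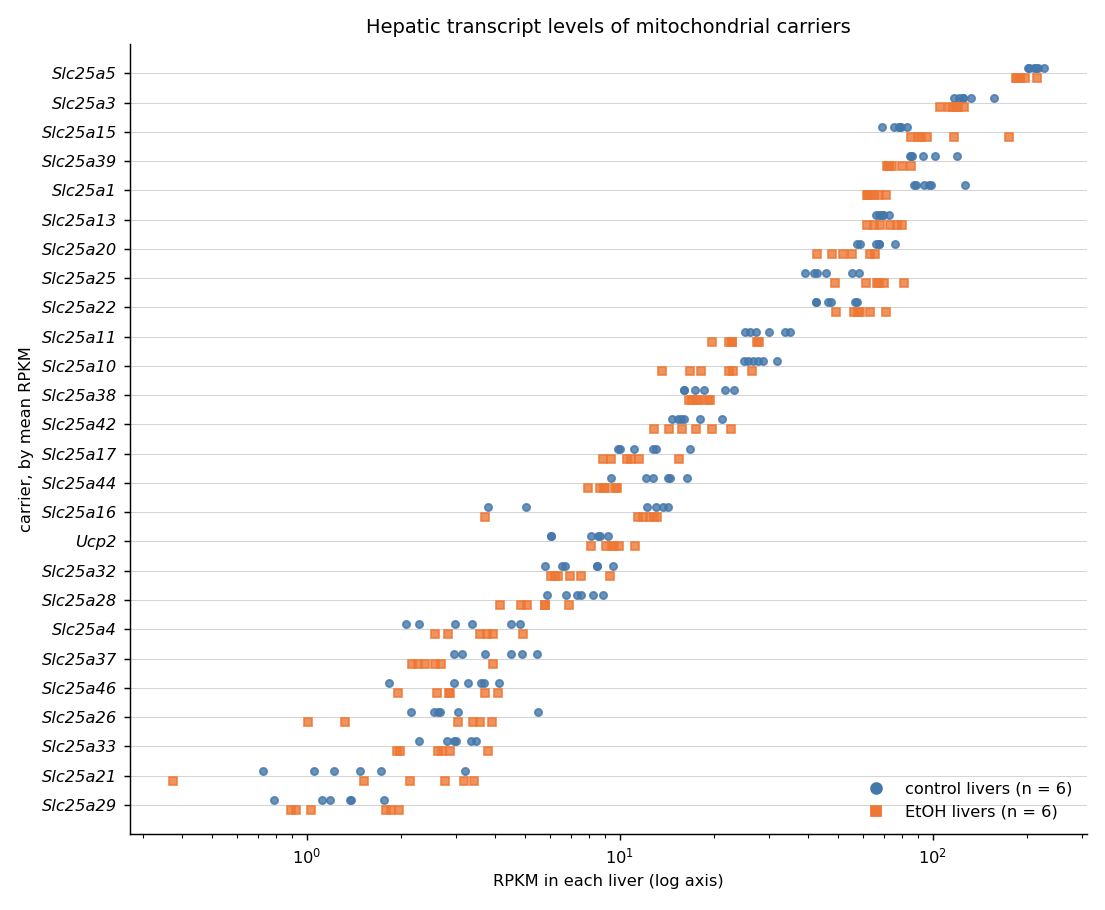
RPKM of 26 carriers with a mean of at least 1 in each of the 6 control livers (blue circles) and 6 EtOH livers (orange squares), on a log axis, ordered by mean. Slc25a5 is at the top with 184 to 227 RPKM over the 12 livers, and the blue and orange points of Slc25a1 and Slc25a15 do not overlap.

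Of the 35 carriers, 3 were called, against 2.42% of all transcripts tested. The citrate carrier Slc25a1 was lower in EtOH livers (1.29% of all transcripts were called lower), and the glutamate carrier Slc25a22 and the ATP-Mg/phosphate carrier Slc25a25 were higher (1.13% were called higher). Among transcripts averaging 1 RPKM or more, a range that holds all 3, the share called was 4.47%. With voom on the recovered reads these 3 carriers, and no other, were called. Over all 25 alternative fits, Slc25a1 was called in each, Slc25a22 in 13 and Slc25a25 in 10. Before adjustment, a p below 0.05 was reached by 12 of 35 carriers, against 15.5% of all transcripts, low ones included. That share is not given for transcripts averaging 1 RPKM or more, the range of 27 of the 35 carriers. The median difference over the carriers was 0.02 on the log2 scale, with 15 below 0 and 20 above 0, and that over all transcripts tested was 0.0002. The groups did not overlap in RPKM for 2 carriers, Slc25a1 (lower in EtOH) and Slc25a15 (higher), against 3.1% of all transcripts, 2.43% lower and 0.677% higher.

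**Figure D2:**
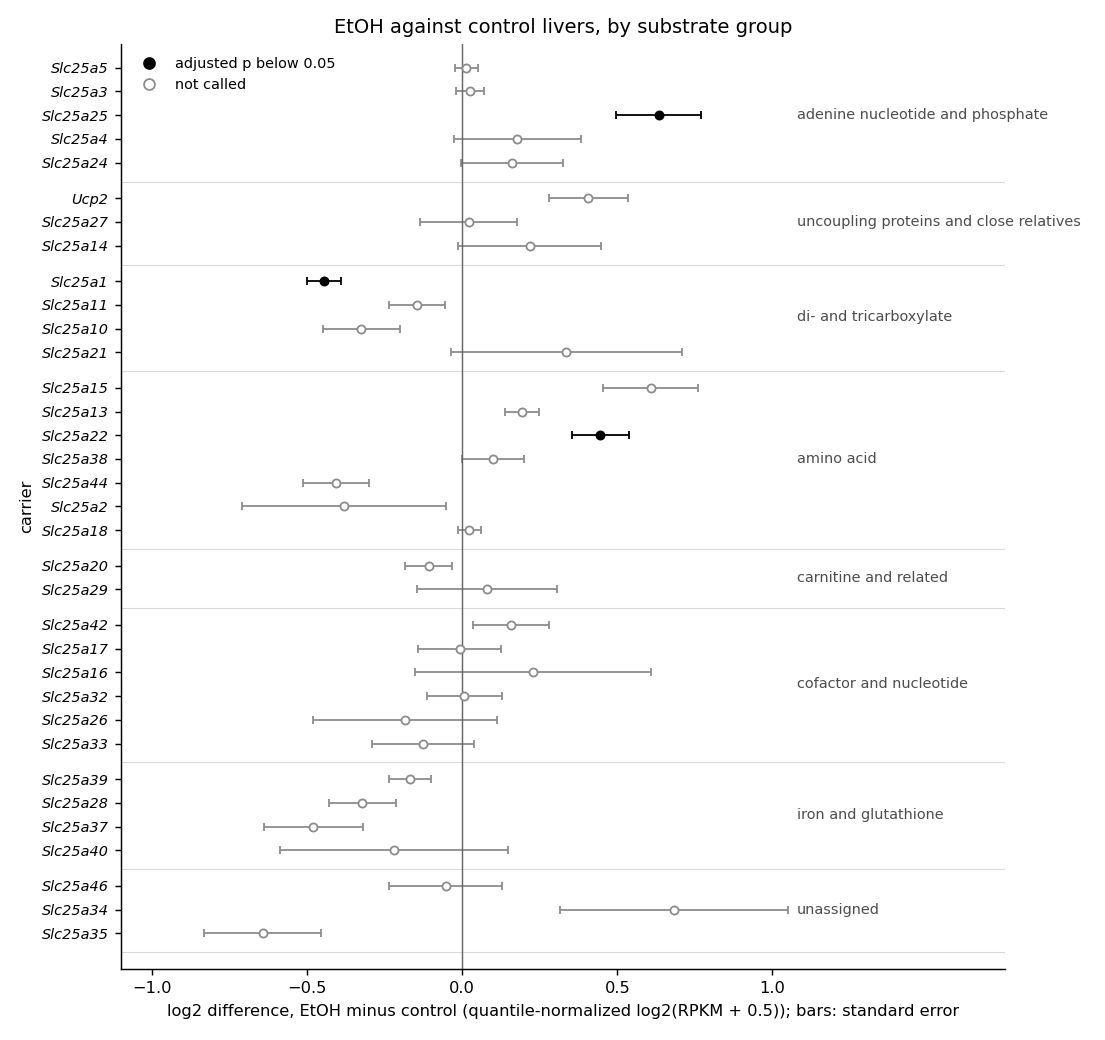
Log2 difference, EtOH minus control, of quantile-normalized log2(RPKM + 0.5) for 34 carriers by substrate group, with bars of 1 SE (n = 6 livers per group). Filled points mark the 3 carriers with an adjusted p below 0.05, Slc25a1 at -0.45, Slc25a22 at 0.45 and Slc25a25 at 0.63, and open points the 31 that were not called.

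Upstream sequences are shown for the 3 called carriers because they let the DNA before each start be set beside its difference. They are the 250 bases before the RefSeq gene start in the rat build GRCr8, read 5′ to 3′ along the gene: chr11:96559804-96560053, plus strand, for Slc25a1, chr1:205965878-205966127, minus strand, for Slc25a22, and chr3:36116582-36116831, minus strand, for Slc25a25. Capitals mark the motifs found on either strand, none of which overlapped another.
Slc25a1: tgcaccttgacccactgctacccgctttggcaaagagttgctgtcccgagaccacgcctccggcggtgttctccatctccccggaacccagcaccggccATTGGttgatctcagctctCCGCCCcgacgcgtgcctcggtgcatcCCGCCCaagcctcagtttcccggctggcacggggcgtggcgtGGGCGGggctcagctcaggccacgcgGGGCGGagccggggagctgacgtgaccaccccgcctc
Slc25a22: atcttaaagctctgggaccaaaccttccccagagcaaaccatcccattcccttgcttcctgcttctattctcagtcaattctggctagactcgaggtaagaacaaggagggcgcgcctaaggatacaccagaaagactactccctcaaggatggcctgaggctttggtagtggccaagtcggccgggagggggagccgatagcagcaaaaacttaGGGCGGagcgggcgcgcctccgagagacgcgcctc
Slc25a25: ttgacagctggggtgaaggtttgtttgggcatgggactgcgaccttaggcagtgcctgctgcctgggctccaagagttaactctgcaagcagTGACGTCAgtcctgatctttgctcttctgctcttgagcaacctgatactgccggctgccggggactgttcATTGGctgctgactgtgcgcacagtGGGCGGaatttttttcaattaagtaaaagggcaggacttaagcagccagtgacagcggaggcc

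Slc25a1 held a CCAAT box 151 bases and GC boxes 132, 105, 63 and 37 bases before the start. In Slc25a25 a cAMP response element began 158 bases, a CCAAT box 88 bases and a GC box 63 bases before the start, and in Slc25a22 a GC box began 35 bases before it. Motifs were searched in the same window of all 33469 promoters. The cAMP response element, searched as TGACGTCA, was present in 1.59% of them, and the sterol response element, searched as TCACNCCAC, in 0.974%. The E-box, searched as CACGTG, was present in 5.59%, and the half-site of the estrogen-related receptors, searched as AAGGTCA, in 3.99%. The CCAAT box, searched by the letters of its name, was present in 34%, and the GC box, searched as GGGCGG, in 30.5%. Among the 30 carriers with a promoter entry, 2 held the cAMP response element (Slc25a25 and Slc25a33), 1 the sterol response element (Ucp2), 2 the E-box (Slc25a2 and Slc25a33), 18 the CCAAT box, 20 the GC box, 1 the half-site (Slc25a34). Such matches describe letters only and name no bound factor.

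Di- and tricarboxylate carriers exchange citrate, malate, oxoglutarate and related acids, and 1 of their 4 members was called, lower in EtOH. Slc25a1 passes citrate out of the matrix, where cytosolic ATP citrate lyase splits it into the acetyl-CoA used for fatty acids and sterols. It is listed on chromosome 11 from 85043902 to 85046918 in the deposited table, whose build the sources used here do not name. Its level was 86.9, 97.7, 127, 94.1, 99.1 and 88.3 RPKM in control animals 1 to 6, with a median of 95.9. In EtOH animals 1 to 6 it was 64.7, 62.1, 62.8, 61.8, 67.2 and 70.9 RPKM, with a median of 63.8. The groups did not overlap, with all EtOH livers lower and close together, while control animal 3 stood above the other controls. The mean RPKM was 98.8 ± 14.6 in control and 64.9 ± 3.55 in EtOH livers (SD, n = 6 each), so the control level was 1.52 times the EtOH level. On the normalized log2 scale the difference was -0.45 (SE 0.056, limma adjusted p = 0.0024). Each liver gave between 415 and 704 reads on this transcript. The call held in all 25 alternative fits, with adjusted p between 0.00089 and 0.044.

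The other carriers of this group did not pass. Slc25a10, the dicarboxylate carrier, which exchanges malate or succinate for phosphate, had 25 to 31.9 RPKM in control livers (median 27.1) and 13.6 to 26.4 in EtOH livers (median 20.2). All 6 EtOH livers were below the control median, although the groups overlapped, and the difference was -0.33 (SE 0.124, adjusted p = 0.22). Slc25a11, the oxoglutarate carrier of the malate-aspartate shuttle, had medians of 28.6 RPKM in control and 22.9 RPKM in EtOH livers, with a difference of -0.15 (SE 0.09, adjusted p = 0.49), or -0.30 without normalization (adjusted p = 0.15). Slc25a21, which carries oxoadipate, rested on 1 to 6 reads per liver and gave 0.34 (SE 0.374, adjusted p = 0.68).

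Of the 7 amino acid carriers 1 was called, Slc25a22, higher in EtOH. Slc25a22 brings glutamate into the matrix together with a proton and is listed on chromosome 1 from 201617692 to 201625537. Control animals 1 to 6 had 56.3, 42.4, 57.4, 47.2, 46.4 and 42.4 RPKM (median 46.8). EtOH animals 1 to 6 had 49.2, 57.6, 63.0, 58.7, 70.8 and 56.1 RPKM (median 58.1). All 6 EtOH livers were above the control median, but control animals 1 and 3 fell within the EtOH range. The mean was 48.7 ± 6.65 RPKM (SD, n = 6) in control and 59.2 ± 7.22 (SD, n = 6) in EtOH livers, or 1.22 times as high, and the normalized log2 difference was 0.45 (SE 0.092, adjusted p = 0.029). Without any normalization between livers the difference was 0.28 and the call was lost (adjusted p = 0.15), as it was with median scaling (0.37, adjusted p = 0.065). It was lost too when control animal 2, 4 or 5 or EtOH animal 2, 3, 4 or 5 was left out, with adjusted p from 0.055 to 0.071.

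Slc25a15, the ornithine carrier, supplies the mitochondrial steps of the urea cycle and returns citrulline to the cytosol. Its level was 78.2, 68.7, 75.1, 79.5, 82.9 and 78.1 RPKM in control animals 1 to 6 (median 78.2), and 85.2, 96.2, 117, 92.0, 176 and 89.6 RPKM in EtOH animals 1 to 6 (median 94.1). Every EtOH liver was above every control liver, and EtOH animal 5 stood far above the others. The mean was 77.1 ± 4.83 RPKM in control and 109 ± 34.3 in EtOH livers (SD, n = 6 each), but the normalized log2 difference of 0.61 (SE 0.153) missed the threshold with an adjusted p of 0.060. Without EtOH animal 5 the difference was smaller, 0.47, and passed with an adjusted p of 0.044. Slc25a2, a second ornithine carrier, was low, at 0 to 6 reads per liver, with medians of 0.367 RPKM in control and 0.25 in EtOH livers and a difference of -0.38 (SE 0.329, adjusted p = 0.65).

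Slc25a13 (citrin) exchanges matrix aspartate for cytosolic glutamate. It had 66.0 to 72.3 RPKM in control livers (median 68.6) and 61.7 to 79.6 in EtOH livers (median 70.4), and 3 EtOH livers lay on each side of the control median. Its difference was 0.19 (SE 0.055, adjusted p = 0.091), but 0.03 without normalization (adjusted p = 0.81) and 0.13 with median scaling (adjusted p = 0.33). Slc25a44, a carrier of branched-chain amino acids, had 9.42 to 16.4 RPKM in control livers (median 13.5) and 7.93 to 9.79 in EtOH livers (median 8.96). All 6 EtOH livers were below the control median, with overlap only through control animal 6. The difference was -0.41 (SE 0.106, adjusted p = 0.070), and without control animal 6 it was -0.48 and passed (adjusted p = 0.022). Slc25a38, which carries glycine for heme synthesis, had medians of 18.0 RPKM in control and 17.8 RPKM in EtOH livers, with a difference of 0.10 (SE 0.1, adjusted p = 0.65) that became -0.05 without normalization. Slc25a18, a second glutamate carrier, was above 0 only in EtOH animal 4, at 0.0896 RPKM. Its read count cannot be recovered from 1 liver.

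**Figure D3:**
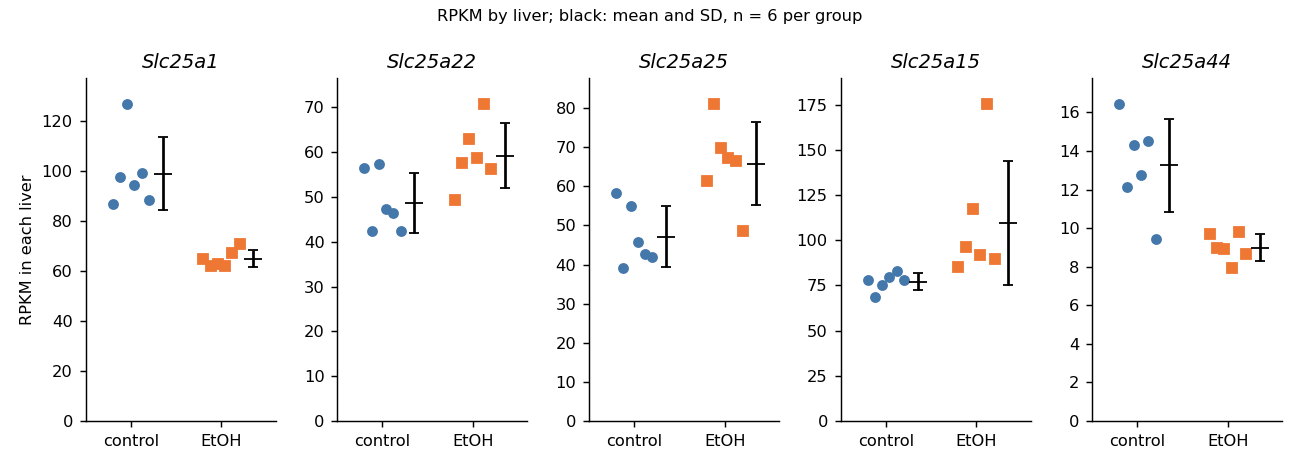
RPKM of Slc25a1, Slc25a22, Slc25a25, Slc25a15 and Slc25a44 in each liver, with the mean and SD of each group in black (n = 6 per group) and axes starting at 0. EtOH points lie wholly below the control points for Slc25a1 and wholly above them for Slc25a15, where EtOH animal 5 reaches 176 RPKM.

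Adenine nucleotide and phosphate carriers feed ATP synthesis, and 1 of 5 was called, higher in EtOH. Slc25a25 exchanges ATP-Mg for phosphate under the control of calcium and is listed on chromosome 3 from 11546073 to 11556195. In control animals 1 to 6 its level was 58.3, 39.0, 55.1, 45.7, 42.8 and 41.8 RPKM (median 44.2). EtOH animals 1 to 6 had 61.4, 81.1, 69.9, 67.2, 66.4 and 48.7 RPKM (median 66.8). All EtOH livers exceeded the control median, and only EtOH animal 6 fell within the control range. The mean was 47.1 ± 7.78 RPKM (SD, n = 6) in control and 65.8 ± 10.6 (SD, n = 6) in EtOH livers, or 1.40 times as high, with a normalized log2 difference of 0.63 (SE 0.138, adjusted p = 0.035). The call was kept without control animal 1 (0.71) and without EtOH animal 6 (0.73). Leaving out any of the other 10 livers gave differences of 0.55 to 0.65 with adjusted p from 0.052 to 0.076, and without normalization the difference was 0.48 (adjusted p = 0.055).

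Slc25a5, an ADP/ATP carrier that exports matrix ATP for cytosolic ADP, was the highest carrier in both groups. Its level was 202, 213, 227, 217, 211 and 203 RPKM in control animals 1 to 6 and 186, 184, 190, 190, 197 and 215 RPKM in EtOH animals 1 to 6, with medians of 212 and 190. In RPKM, 5 EtOH livers lay below the lowest control liver, whereas the normalized log2 difference was 0.013 (SE 0.036, adjusted p = 0.90), and without normalization it was -0.13. Slc25a3, which brings phosphate into the matrix for ATP synthase, showed the same shift between scales. It had 125, 132, 157, 117, 125 and 121 RPKM in control animals 1 to 6 and 126, 106, 113, 119, 116 and 121 RPKM in EtOH animals 1 to 6, with medians of 125 and 118. The normalized difference was 0.025 (SE 0.045, adjusted p = 0.82) and that without normalization -0.15.

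Slc25a4, the ADP/ATP carrier best known from heart and muscle, had medians of only 3.18 RPKM in control and 3.67 RPKM in EtOH livers and a difference of 0.18 (SE 0.204, adjusted p = 0.69). Slc25a24, another ATP-Mg/phosphate carrier, was below 1 RPKM on average, with medians of 0.640 and 0.691 RPKM and a difference of 0.16 (SE 0.165, adjusted p = 0.66). The testis carrier Slc25a31 was listed at 0. RefSeq lists 9 pseudogenes of Slc25a5, 8 of Slc25a39 and 2 of Slc25a3, and 26 in all for 10 of the carriers. Reads shared with such copies make the levels of these carriers uncertain.

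Uncoupling proteins let protons or other ions pass the inner membrane. None of the 3 members of this group was called by limma, and 1 of them, Ucp2, had an unadjusted p below 0.05. Ucp2 was the only one of the named Ucp genes above 0, and is known from immune cells, Kupffer cells among them, as well as from other tissues. It had 6.05 to 9.15 RPKM in control livers (median 8.32) and 8.12 to 11.2 in EtOH livers (median 9.51). The groups overlapped, with 5 EtOH livers above the control median, and the difference of 0.41 (SE 0.127) was not called (adjusted p = 0.12). The Kupffer cell markers Cd163, Clec4f and Vsig4 were called higher in the same livers, and their part in the Ucp2 difference was not tested. Ucp1, which makes heat in brown fat, and Ucp3, a muscle form, were at 0, as were Adipoq, Lep, Plin, Ckm and Mb, whereas the fat cell marker Cidea was above 0 in all 12 livers. Slc25a27 and Slc25a14, relatives described mainly in brain, had means below 1 RPKM and differences of 0.020 (SE 0.158, adjusted p = 0.96) and 0.22 (SE 0.231, adjusted p = 0.67).

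Of the 4 carriers assigned to iron and glutathione none was called by limma, although 3 had an unadjusted p below 0.05, and all 4 differences lay below 0 for the transcripts kept, that of Slc25a40 only until its transcripts were summed. Slc25a39 imports glutathione into mitochondria. Its level was 84.7, 85.4, 120, 86.1, 101 and 92.8 RPKM in control animals 1 to 6 (median 89.4) and 71.4, 72.3, 72.5, 85.5, 79.8 and 74.3 RPKM in EtOH animals 1 to 6 (median 73.4). Only EtOH animal 4 reached the control range, and the difference was -0.17 (SE 0.067, adjusted p = 0.25), or -0.31 without normalization (adjusted p = 0.066). Slc25a40, its close relative, was at 0 to 6 reads per liver and gave -0.22 (SE 0.367, adjusted p = 0.80) for the transcript kept, and 0.20 for the sum of its 2 transcripts.

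Slc25a37 and Slc25a28 are the mitoferrins, which import iron for heme and iron-sulfur clusters. Slc25a37, the form of red cell precursors, had 3.71, 4.89, 5.45, 3.13, 4.48 and 2.95 RPKM in control animals 1 to 6 (median 4.10) and 2.69, 2.17, 2.28, 2.38, 2.57 and 3.93 RPKM in EtOH animals 1 to 6 (median 2.48). All 6 EtOH livers were below the control median, and only EtOH animal 6 lay within the control range. The difference was -0.48 (SE 0.16, adjusted p = 0.15) on 15 to 30 reads per liver. Slc25a28, the more widely expressed form, had 5.88 to 8.82 RPKM in control livers (median 7.41) and 4.15 to 6.88 in EtOH livers (median 5.40), with a difference of -0.32 (SE 0.107, adjusted p = 0.15). The erythroid markers were not called, with a summed level of 293 to 633 RPKM in control and 396 to 677 in EtOH livers.

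Neither of the 2 carnitine and related carriers was called, and 0 had an unadjusted p below 0.05. Slc25a20 exchanges acylcarnitine for carnitine and so brings long-chain fatty acids to the matrix. It had 57.4 to 75.5 RPKM in control livers (median 66.6) and 42.6 to 65.5 in EtOH livers (median 53.5). All 6 EtOH livers were below the control median in RPKM, and the normalized difference was -0.11 (SE 0.077, adjusted p = 0.56), or -0.28 without normalization (adjusted p = 0.19). Slc25a29, a carrier of basic amino acids first described as carnitine-related, was at 5 to 17 reads per liver, with a difference of 0.08 (SE 0.225, adjusted p = 0.89).

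None of the 7 cofactor and nucleotide carriers was called by limma, 0 had an unadjusted p below 0.05, and their median difference was 0.007. Slc25a42, which carries coenzyme A, had medians of 15.9 RPKM in control and 16.7 RPKM in EtOH livers (0.16, SE 0.122, adjusted p = 0.61, and 0.011 without normalization). The peroxisomal carrier Slc25a17 had medians of 12.0 and 10.7 RPKM (-0.008, SE 0.134, adjusted p = 0.98, and -0.14 without normalization). Slc25a32, linked to folate and flavin transport, had 7.57 and 6.63 RPKM (0.007, SE 0.122, adjusted p = 0.98), a difference that became -0.09 without normalization. Slc25a26, which brings in S-adenosylmethionine, and Slc25a33, a pyrimidine nucleotide carrier, had medians between 2.65 and 3.23 RPKM in both groups, and their differences were -0.18 (SE 0.296) and -0.13 (SE 0.164), with adjusted p of 0.79 and 0.73.

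Slc25a16, a carrier linked to coenzyme A supply, shows how the choice of transcript can set a value. It is listed as 3 transcripts over one region of chromosome 20. In 9 livers all its reads were on 1 of these, at 11.5 to 14.2 RPKM. In control animals 2 and 3 and EtOH animal 4 the level was spread nearly evenly over all 3, so that the transcript kept stood at 5.02, 3.80 and 3.72 RPKM. The kept transcript gave a difference of 0.23 (SE 0.379, adjusted p = 0.80). The sum of the 3 was 10.6 to 14.2 RPKM in control livers (median 13.4) and 11.5 to 13.2 in EtOH livers (median 12.3), with a difference of 0.056 (SE 0.083, adjusted p = 0.77). Summed, EtOH animal 4 lay within the range of the 9 unsplit livers, control animal 3 was the lowest liver at 10.6 RPKM and control animal 2 the highest at 14.2, and the SE was smaller.

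**Figure D4:**
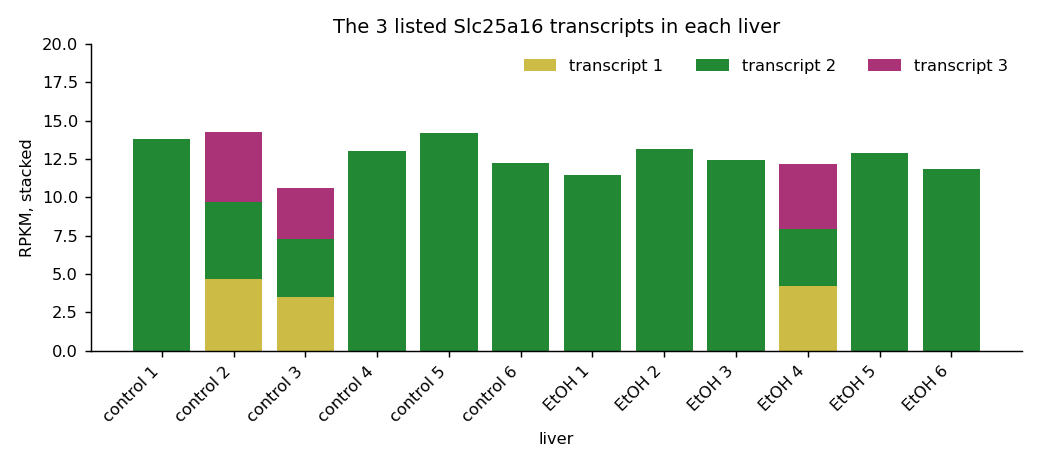
RPKM of the 3 listed Slc25a16 transcripts, stacked, in each of the 12 livers. Transcript 2 carries the whole level in 9 livers, while control animals 2 and 3 and EtOH animal 4 are split over all 3 transcripts, with totals of 10.6 to 14.2 RPKM.

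Carriers with no substrate group assigned here were Slc25a46, an outer membrane protein involved in mitochondrial shape, Slc25a34 and Slc25a35. Slc25a46 had medians of 3.44 RPKM in control and 2.86 RPKM in EtOH livers (-0.054, SE 0.182, adjusted p = 0.91). Slc25a35 had 0.605 to 1.29 RPKM in control livers (median 0.859) and 0.134 to 0.648 in EtOH livers (median 0.449). All 6 EtOH livers were below the control median, with 1 to 9 reads per liver, and the difference of -0.64 (SE 0.188) was not called (adjusted p = 0.10). Slc25a34 was at 0 in 3 control livers and at 0.485 to 1.18 RPKM in all EtOH livers, while control animal 6 was highest of all at 1.45 RPKM. Slc25a34 rested on 0 to 9 reads per liver, and the EtOH libraries were mostly deeper. Its difference was 0.68 (SE 0.367, adjusted p = 0.42).

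Ratios between related carriers were taken within each liver from RPKM + 0.5, and 3 of the 6 pairs listed could be formed. Over these 3, the exact two-sided permutation test of 6 against 6 livers, whose smallest possible p is 0.00216, called none. The log2 ratio of Slc25a4 to Slc25a5 was -5.84 ± 0.43 in control and -5.59 ± 0.348 in EtOH livers (SD, n = 6 each), a difference of 0.25 (exact p = 0.286, Benjamini-Hochberg adjusted p = 0.529). For the mitoferrins, Slc25a28 to Slc25a37, it was 0.80 ± 0.176 and 0.90 ± 0.194, a difference of 0.10 (exact p = 0.353, adjusted p = 0.529). Slc25a39 to Slc25a40 differed by -0.12 (exact p = 0.825, adjusted p = 0.825), a sign that turned with a pseudocount of 0.1 (0.36) and with 3 of the 12 livers left out in turn (range -0.29 to 0.11). Slc25a40 was at 0 in 4 livers.

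Spread between animals was also read for the 27 carriers averaging 1 RPKM or more. Their median coefficient of variation was 15.9% in control and 17.5% in EtOH livers, beside 21.1% and 17.4% for the 11086 transcripts at that level.

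Enzymes and regulators that work beside the carriers were read from 9 lists. Each partner or marker gene was read from its transcript of highest mean RPKM, and its transcripts were not summed. Of 66 genes listed, 59 were tested and 6 were called, 4 lower and 2 higher. The lists were chosen with earlier results of these data known. The authors had already reported Me1, Srebf1 and Srebf2 as lower in these livers. The count is therefore no independent test against the shares that follow. Over all transcripts tested 2.42% were called, 1.29% lower and 1.13% higher, and 4.47% among those averaging 1 RPKM or more. Beside citrate export, 1 of 8 genes was called, the malic enzyme Me1, which turns cytosolic malate into pyruvate and yields NADPH. It had 21.2 to 49.6 RPKM in control livers (median 29.9) and 7.04 to 14.7 in EtOH livers (median 10.9), without overlap, and a difference of -1.40 (SE 0.194, adjusted p = 0.0039). Acly, the enzyme that splits the exported citrate, had medians of 113 and 66.5 RPKM with a difference of -0.47 that was not called (SE 0.271, adjusted p = 0.46). The median difference of this list was 0.01.

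The malate-aspartate shuttle enzymes showed 1 call among 4. Got1, the cytosolic aspartate aminotransferase, had 30.2 to 54.9 RPKM in control livers (median 44.4) and 90.7 to 340 in EtOH livers (median 154). The groups did not overlap, and the difference was 2.04 (SE 0.26, adjusted p = 0.0026). Its mitochondrial partner Got2 had medians of 175 and 168 RPKM (0.085, SE 0.055, adjusted p = 0.51). Mdh2 had 119 to 155 RPKM in control and 96.6 to 117 in EtOH livers, without overlap. Its normalized difference of -0.11 was not called (SE 0.043, adjusted p = 0.24). The shuttle carriers Slc25a11 and Slc25a13, given above, were not called.

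Of 5 urea cycle enzymes 1 was called, Cps1, which makes carbamoyl phosphate in the matrix. It had 488 to 661 RPKM in control livers (median 583) and 714 to 948 in EtOH livers (median 877), a difference of 0.58 (SE 0.112, adjusted p = 0.022). Otc, which joins carbamoyl phosphate to the ornithine brought in by Slc25a15, had 258 to 315 RPKM in control and 321 to 368 in EtOH livers, without overlap, but its normalized difference of 0.29 (SE 0.09) was not called (adjusted p = 0.12). Ass1 was not called either, with a larger difference of 0.459 (SE 0.116, adjusted p = 0.061). Arg1 (-0.115, SE 0.101, adjusted p = 0.65) and Nags (-0.068, SE 0.09, adjusted p = 0.74) lay below 0. The list median was 0.29.

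Among 8 genes of carrier import and outer membrane relatives, Timm9, a small chaperone of the intermembrane space that escorts carriers to the inner membrane, was called lower. It had 5.81 to 9.49 RPKM in control livers (median 7.23) and 1.95 to 5.29 in EtOH livers (median 3.32), with a difference of -0.93 (SE 0.203, adjusted p = 0.035) on 7 to 23 reads per liver. Of 10 regulators, 2 were called lower. Srebf1 and Srebf2 encode the sterol regulatory element binding proteins, which control lipid and cholesterol synthesis genes. Srebf1 had medians of 77.6 and 28.6 RPKM (-1.22, SE 0.257, adjusted p = 0.030) and Srebf2 17.7 and 11.4 RPKM (-0.46, SE 0.085, adjusted p = 0.019), without overlap in either.

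The remaining lists held no call by limma. An unadjusted p below 0.05 was found in 2 of 5 carnitine shuttle genes and 0 of 4 pyruvate carrier and porin genes. It was found in 2 of 7 other inner membrane transporters and 1 of 9 ATP synthase subunits, against 15.5% of all transcripts, low ones included. Among carnitine shuttle genes Cpt1a, which makes acylcarnitine at the outer membrane, had the smallest p, with medians of 20.9 and 38.7 RPKM and a difference of 0.96 (SE 0.269, adjusted p = 0.089). The smallest p of the pyruvate carrier and porin genes belonged to Mpc1 (0.15, SE 0.08, adjusted p = 0.40), and that of the ATP synthase subunits to Atp5o (-0.11, SE 0.048, adjusted p = 0.29). The list medians were 0.116, -0.047, 0.062 and 0.017.

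**Figure D5:**
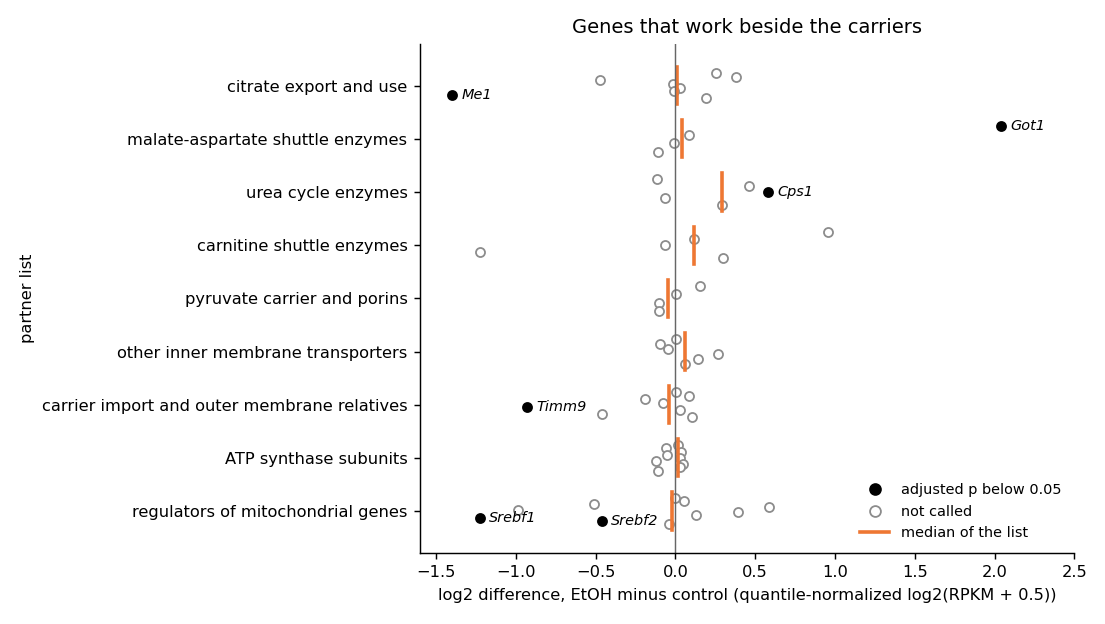
Log2 difference, EtOH minus control, of quantile-normalized log2(RPKM + 0.5) for 58 tested genes of the 9 partner lists, with each list's median as an orange bar. Mdh1 belongs to 2 lists. The 6 called genes are filled and named, from Me1 at -1.40 to Got1 at 2.04, and most other genes lie near 0.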

How the data were processed

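Poly(A) RNA from 12 rat livers was sequenced as 101-nt paired-end reads in a single lane. Mapping and RPKM per transcript came from CLCbio Genomics Workbench as run by the authors, who deposited the RPKM values; genome build and strand handling are not given in the sources used here. The 4 columns that hold the authors' own comparison (fold change, test statistic, p and its correction) were not used. Group and animal number came from the sample titles, and each sample is a separate animal.

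RPKM was converted to log2(RPKM + 0.5), quantile normalized and fitted with limma 3.58.1 (mean-variance trend; R 4.3.3) on all 21718 of 34391 transcripts above 0 in at least 1 liver. No filter on low values was applied. Benjamini-Hochberg adjustment ran over all of them and calls were made below 0.05. The same fit was also run on simulated reads with known changes, and its outcome is not used here. Whole counts that fit the RPKM steps were found for 21718 of 21718 transcripts (tolerance 0.01), the smallest fitting counts being taken. A transcript above 0 in 1 liver fits at 1 read whatever its true count. Where few livers were above 0, the fit is a weak check. These recovered reads gave the depths and a voom alternative, and they may count reads or read pairs. PCR duplicates could not be seen, so counts cover counting error only.

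A carrier and a partner gene that the rule for named genes would name are not reported here. That rule took all carriers, with each liver's value for those called, the 5 of highest mean and the 5 of largest change among means of at least 1 RPKM. In partner lists it took called genes or that of smallest p. Acly, Got2, Otc and the other uncalled genes named from their lists were added after their values were seen. Carriers, lists and tests were chosen with earlier results of these data known, and the motifs after values were seen. Older symbols were matched strictly, after a first match proved wrong. The promoter table is RefSeq's (GRCr8); 30 of 35 carriers matched.

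The alternatives were other pseudocounts (0.1 and 1), normalizations, scales, filters, fits without a trend or with a replicate block, leaving out each liver, and summing a gene's transcripts.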

Additional observations from a re-analysis of the deposited data

Results flagged for a closer look

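In 7 of the 69 carrier and group combinations checked, 1 liver stood apart from the other 5 of its group, its gap to the nearest exceeding 0.625 of the group's range (Dixon's critical value). Chance flags about 1 in 20 such groups. Slc25a15 reached 176 RPKM in EtOH animal 5, and without that liver its difference was 0.47 (adjusted p = 0.044). Slc25a1 reached 127 RPKM in control animal 3, and the call of Slc25a1 held whichever liver was left out. Slc25a16 was at 3.72 RPKM in EtOH animal 4, one of the livers in which its level was split over 3 transcripts. Slc25a37 was at 3.93 RPKM in EtOH animal 6 and Slc25a26 at 5.47 RPKM in control animal 4. Slc25a2 was at 1.52 RPKM in EtOH animal 5, and Slc25a18 at 0.0896 RPKM in EtOH animal 4, the only liver in which it was above 0.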

How the results depend on the processing

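The call of Slc25a1 held in all 25 alternatives, while Slc25a25 was called in 10, Slc25a22 in 13, and Slc25a15 and Slc25a44 in 3 each. Of 865 carrier values under alternatives, 797 kept their direction and side of the threshold, and 25 carriers never changed sign. The 526 transcripts called became 322 with an unmoderated test on square-root values, 860 where transcripts had to average 1 RPKM and 113 with the replicate block, and 212 to 656 with 1 liver left out. The 281 lower and 245 higher calls became 648 and 126 without normalization, 337 and 194 with median scaling, and 389 and 84 for square-root values without the quantile step. The 3 carriers called became 1 under either unmoderated square-root test, 5 where transcripts had to average 1 RPKM (there Slc25a15 and Slc25a44 joined; fewer transcripts were tested) and 1 with the replicate block, and 1 to 3 with 1 liver left out. Lower calls were 2 without normalization and 2 with the same filter (1 to 2 with a liver left out). Higher calls were 0 without normalization, 1 with median scaling, 0 under both unmoderated tests, 1 without a trend and 0 with the block (0 to 2 with a liver left out). The 6 partner genes called were 10 with the filter at 1 RPKM and 2 with the block, and 3 to 7 with 1 liver left out. The replicate block rests on animal numbers that do not pair the livers: deviations of same-numbered animals correlated between -0.0669 and 0.0322, and 1 of 6 control animals correlated best with its own number. For the other changes, including those under normalization, the cause was not tested.

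Some differences changed sign. Slc25a5 was -0.133 without normalization, -0.041 with median scaling and -0.655 on square-root values without the quantile step, and -0.005 to 0.027 with 1 liver left out. Slc25a3 was -0.146, -0.054 and -0.573 under those settings, -0.023 with voom, and -0.005 to 0.045 with a liver left out. Slc25a32 was -0.091, -0.005 and -0.094, and -0.055 to 0.076. Slc25a38 was -0.05 without normalization and -0.085 on square-root values without the quantile step. With voom, Slc25a29 was -0.007 and Slc25a27 -0.012, and with a liver left out they ran from -0.015 to 0.164 and from -0.038 to 0.097. With a liver left out, Slc25a17 ran from -0.093 to 0.069, Slc25a46 from -0.17 to 0.037 and Slc25a26 from -0.291 to 0.007. Slc25a40 was 0.195 for the sum of its transcripts, and the ratio of Slc25a39 to Slc25a40 differed by 0.364 with a pseudocount of 0.1 (-0.292 to 0.108 with a liver left out). Depth limits the 8 carriers with means below 1 RPKM, none of which had more than 18 reads in any liver.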

Other observations

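Livers differed in how often they gave the highest or lowest level of a carrier in their group. Over the 27 carriers with a mean RPKM of at least 1, control animal 3 was the highest control liver for 13 (48.1%), beside 28% of the 11086 transcripts at that level. EtOH animal 6 was the highest EtOH liver for 10 (37%), beside 27.2% of transcripts, and EtOH animal 2 the lowest for 10 (37%), beside 24.1%. EtOH animal 6 was collected at 39 weeks, against 38 weeks for the others, and whether age has a part in its levels was not tested.

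Second transcripts of the carriers were mostly minor. Slc25a25.1 and Slc25a25.2 held 1.36% and 0.756% of the gene's summed RPKM, Slc25a22.2 0.226% and Slc25a39.1 0.147%. In Slc25a40 the second transcript held 43.0% of the gene's RPKM, on 5 control and 11 EtOH reads in all.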
